A study of Mus musculus with 20 samples.

Results

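The Hippo pathway genes described here are 10 of the 49585 gene IDs of a mouse RNA-seq count table, chosen by name: the co-activator genes Yap1 and Wwtr1, the DNA-binding partner genes Tead1, Tead2, Tead3 and Tead4, the kinase genes Lats1 and Lats2, and the target genes Ankrd1 and Amotl2. Each name matched 1 ID, and all 10 passed the filter on low counts. The libraries are bulk total RNA of 18 primary osteosarcomas, malignant tumours of bone, from mice of mixed C57BL/6J and 129S/SvJae strain, and of 1 cell line set up from such a tumour. Of the tumours, 4 were from p53+/- mice, which have 1 inactive copy of the tumour suppressor gene Trp53. The p53R172H/+ mice gave 6 tumours, the p53R245W/+ mice 3 and the p53R270H/+ mice 5. In these mice 1 copy carries a missense change of p53 at the named residue (here R172H, R245W and R270H). All tumour groups therefore share a germline with 1 altered Trp53 copy, and no group without one was measured. Age, sex, tumour site and the state of the second Trp53 copy in each tumour are not given by the labels used here. Cell line 14, labelled p53R245/O with loss of heterozygosity, gave 1 control library and 1 library after siRNA against p53. The comparisons address whether the 3 missense forms of p53 differ in their effects from a lost allele and from each other.

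In the Hippo pathway the kinases encoded by Lats1 and Lats2 phosphorylate the co-activators YAP, from Yap1, and TAZ, from Wwtr1, and keep them out of the nucleus. When the kinases are low in activity, YAP and TAZ enter the nucleus and bind TEAD proteins, which sit on DNA and carry no strong activation domain of their own. Ankrd1, Amotl2 and Lats2 are well known targets of this complex, and Lats2 and Amotl2 in turn restrain YAP. The pathway is known for its part in growth control and in the sensing of cell shape and matrix stiffness, also in osteoblast precursors. YAP activity depends on phosphorylation and location of the protein, which RNA levels do not measure.

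TEAD proteins recognise the sequence GGAATG, or CATTCC on the other strand. The 30-base stretches below are shown because they hold these letters in the promoters of the 2 co-activator genes and of the 2 target genes whose RNA levels follow. They come from RefSeq promoters of build GRCm38.p6, read 5′ to 3′ on the strand of the gene, with the match in capitals.
Yap1: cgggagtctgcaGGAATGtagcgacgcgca
Wwtr1: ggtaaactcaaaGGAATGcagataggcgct
Ankrd1, far match: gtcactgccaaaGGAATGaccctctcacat
Ankrd1, near match: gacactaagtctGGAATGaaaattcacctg
Amotl2: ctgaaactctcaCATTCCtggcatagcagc
The Yap1 stretch is chr9:8004720-8004749 on the minus strand, with its match starting 141 bases before the annotated start. The Wwtr1 stretch is chr3:57576029-57576058 on the minus strand, 136 bases before the start. The Ankrd1 stretches are chr19:36120037-36120066 and chr19:36119950-36119979 on the minus strand, 210 and 123 bases before the start. The Amotl2 stretch is chr9:102717727-102717756 on the plus strand, 65 bases before the start. These distances are to the start of the RefSeq transcript. For Amotl2 and Ankrd1 that start lies inside the span of the gene in the annotation used below, so their stretches lie within that span. In the 250 bases before a start, searched on both strands, 5 of the 8 members with a promoter in the table held a match, the fifth being Tead3. The same letters stood in a promoter of 14.4% of the 27025 genes listed, and in 12.6% of the 32851 promoters. A match describes letters and is no measured binding.

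Trp53 itself, checked first, had its lowest mean in p53+/- tumours, with 20.2 ± 5.75 CPM (SD, n = 4), where CPM is a gene's count scaled to a library total of 1000000 counts. R245W tumours had the highest mean, with 64.5 ± 8.54 CPM (n = 3). The R172H mean was 50.6 ± 13.5 CPM (n = 6), and the R270H mean 36.8 ± 11.9 CPM (n = 5). No contrast passed for Trp53 (edgeR adjusted p against p53+/- of 0.106 for R172H, 0.0744 for R245W and 0.295 for R270H), and p53+/- 2, at 27 CPM, lay above R270H 3, at 26.5 CPM. Every R172H and every R245W tumour lay above every p53+/- tumour, as 1.79% and 6.21% of all genes did in these contrasts. Total counts ran from 20136957 to 29211623 per tumour library. A serial number stands in the title of every R172H and every R245W tumour and of p53+/- 1 and 2, but in no R270H title and not in those of p53+/- 3 and 4. R270H and R172H tumours therefore differ in the form of the title throughout, and whether that form marks a batch is not stated. The R270H titles also share a stem that no other title has, those of p53+/- 3 and 4 included. Osteoblast and osteocyte markers summed to between 3725 and 10610 CPM in every tumour, with 8 of 10 genes at 1 CPM or more in all of them. In the cell line they summed to 910 and 1115 CPM, with 5 of 10 at 1 CPM or more. In bulk tissue, fewer cells of a type and less RNA per cell cannot be told apart.

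No member passed the threshold of 0.05 in any of the 6 contrasts between genotypes, and 1, Tead4, passed the test for any difference among the 4 genotypes (edgeR quasi-likelihood test, adjusted by Benjamini-Hochberg over the 20616 genes tested). Of all genes, 2.86% passed the latter test. The share of all genes that passed was 0.0776% for R172H against p53+/-, 0.0728% for R245W against p53+/- and 0% for R270H against p53+/-. It was 0.155% for R245W against R172H, 5.28% for R270H against R172H and 1.24% for R245W against R270H. At an unadjusted edgeR p under 0.05 the members numbered 1, 4 and 1 of 10 in the contrasts of R172H, R245W and R270H with p53+/-, where 12.3%, 12.5% and 11.5% of all genes met it. With DESeq2, Tead4 passed all 3 contrasts of R245W and Tead3 passed R245W against R270H. The shares above are those of edgeR and do not apply to these calls. DESeq2 passed 371, 352 and 1201 of all genes in R245W against p53+/-, R172H and R270H, where edgeR passed 15, 32 and 255. The plot of every library shows how the spread within genotypes compares with the distances between them.

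**Figure D1:**
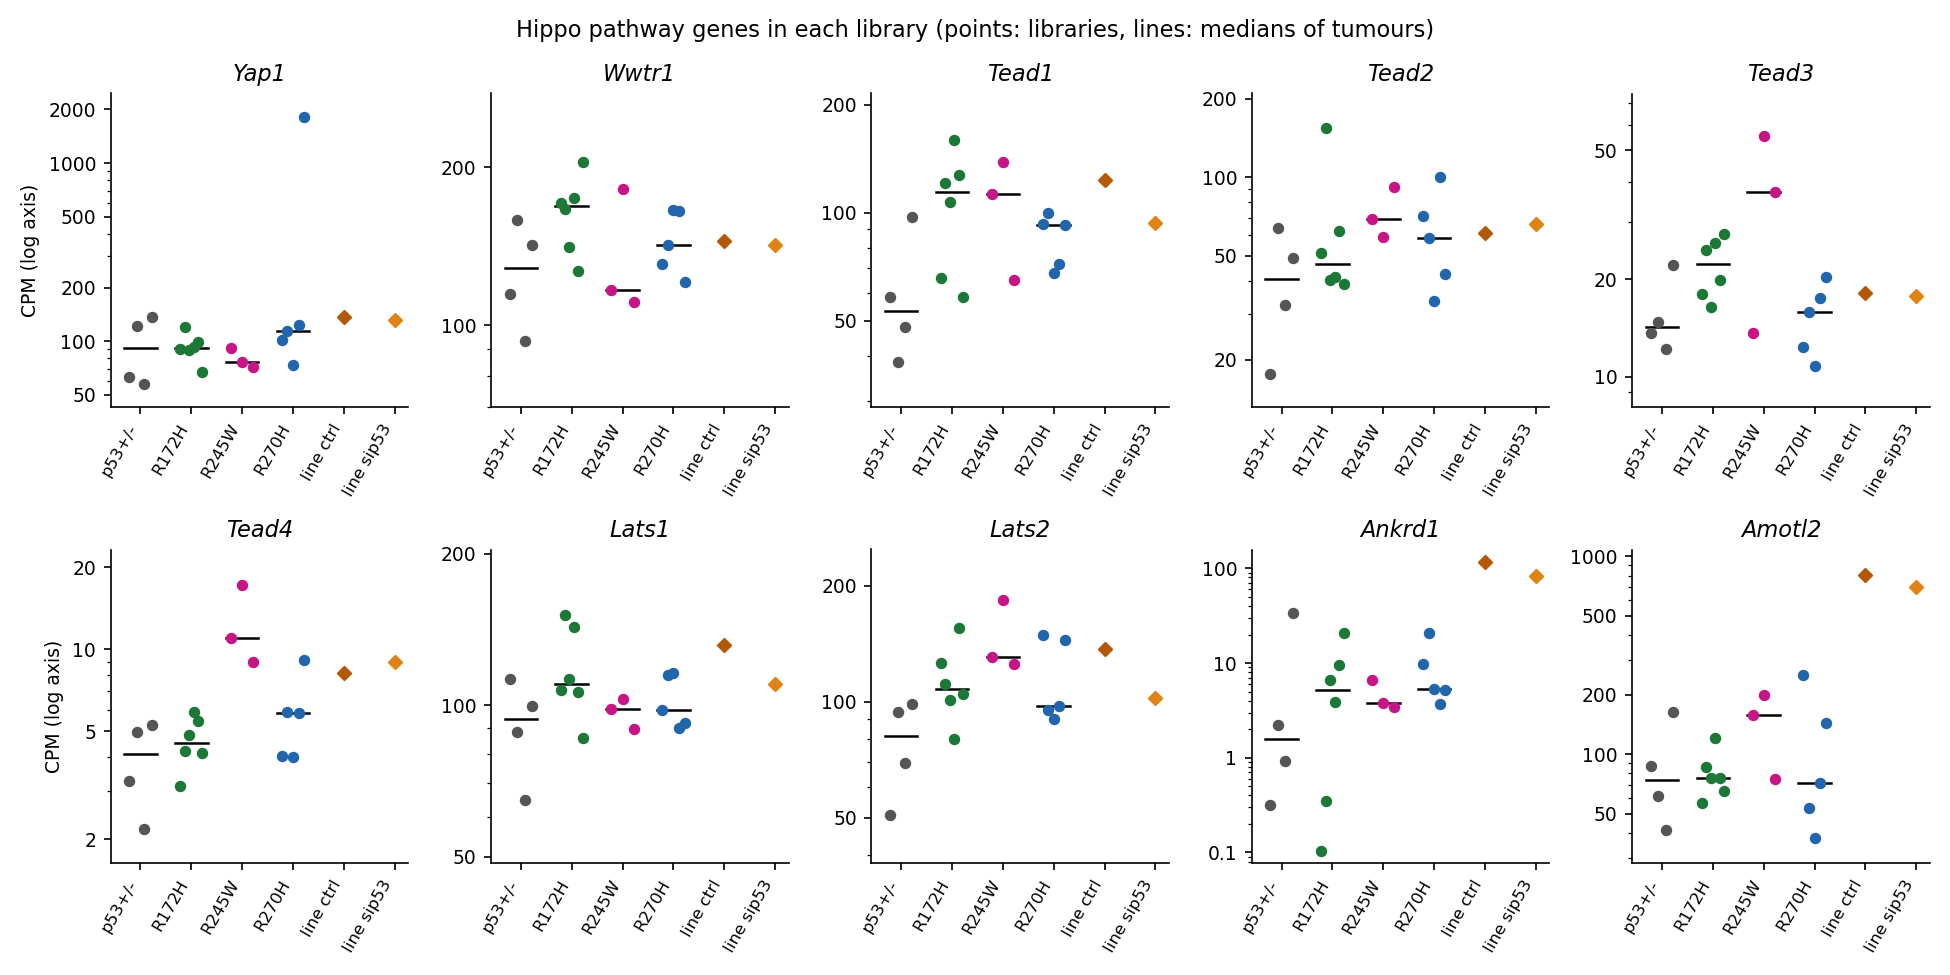
CPM of the 10 genes in each library on a log axis, one panel per gene, with tumours as circles, the 2 cell line libraries as diamonds, and a line at the median of each tumour group. Yap1 has 1 R270H tumour at 1820 CPM with all other tumours between 57.2 and 136 CPM, Tead4 is highest in R245W, and Ankrd1 and Amotl2 are higher in the cell line than in any tumour.

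Yap1 (ENSMUSG00000053110.13, chr9:7931999-8004596, minus strand) encodes YAP. In p53+/- tumours it measured 62.8, 121, 57.2 and 136 CPM. The 6 R172H tumours had a minimum of 67.3, a median of 92.0 and a maximum of 120 CPM, and the R245W tumours had 91.8, 76.4 and 71.6 CPM. R270H tumours 1 to 4 had 101, 114, 73.8 and 123 CPM, and R270H 5 had 1820 CPM. Apart from that tumour the 4 groups overlapped. R270H 5 stood 19.8-fold above the median of the other 17 tumours, 91.8 CPM, and 13.4-fold above the highest of them. The mean of R270H tumours was 446 ± 768 CPM (SD, n = 5) with this tumour and 103 ± 21.5 CPM (n = 4) without it. The log2 difference between R270H and p53+/- was 2.14 ± 0.78 (SE; edgeR adjusted p = 0.291), and without R270H 5 it was 0.02 ± 0.24 (edgeR adjusted p = 0.989). Against R172H it was 2.30 ± 0.67 (edgeR adjusted p = 0.0556), and 0.18 ± 0.22 without R270H 5 (edgeR adjusted p = 0.685). The latter contrast passed without R270H 2 or R270H 3, with edgeR adjusted p of 0.0405 and 0.0484. For R245W against R270H it was -2.46 ± 0.89 (edgeR adjusted p = 0.153), and -0.34 ± 0.26 without that tumour (edgeR adjusted p = 0.524). The R270H values of Yap1 thus rest on 1 tumour. A noncoding transcript on the opposite strand, Gm20416, shares 116 exon bases with Yap1, and whether counting used the strand is not given, so reads over these bases cannot be assigned.

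The genes around Yap1 were high in the same tumour. From Alkbh8, the first gene of chromosome 9 with a median of at least 1 CPM in the other 17 tumours, to Gm32014, a stretch of 5.41 Mb (chr9:3335140-8740988, GRCm38) held 26 such genes. In R270H 5, 24 of the 26 were above all 17 other tumours and at 4-fold or more of their median, and the median ratio over the 26 was 15.7. Birc2 and Birc3, which encode inhibitors of apoptosis, lie next to Yap1 and were 12.4-fold and 6.76-fold the median. Birc2 had 566 CPM in R270H 5 against at most 69.3 CPM elsewhere. Pdgfd, a ligand of a platelet-derived growth factor receptor, was 23.2-fold the median, and Cfap300, a gene of motile cilia, 22.6-fold. Casp12, of the caspase genes in the stretch, was 19.0-fold. Mmp13, a collagenase made by bone cells, had 7089 CPM against a median of 1195 and a maximum of 4921 CPM. The exceptions were the protease genes Mmp12, at 1.40-fold, and Mmp3, at 1.06-fold, both low in most tumours. The ends of the stretch were set after seeing values, at the first and last gene with a ratio of at least 4 within 10 Mb of Yap1, so that the genes beyond it lie under 4-fold by construction. The next gene, Arhgap42, was at 0.944-fold, and the 26 genes from it to 10 Mb from Yap1 had a median ratio of 0.933 and a range of 0.564 to 2.41. In the other 17 tumours the median ratio over the stretch lay between 0.498, in p53+/- 2, and 1.61, in R270H 2. No measurement of DNA was used here.

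**Figure D2:**
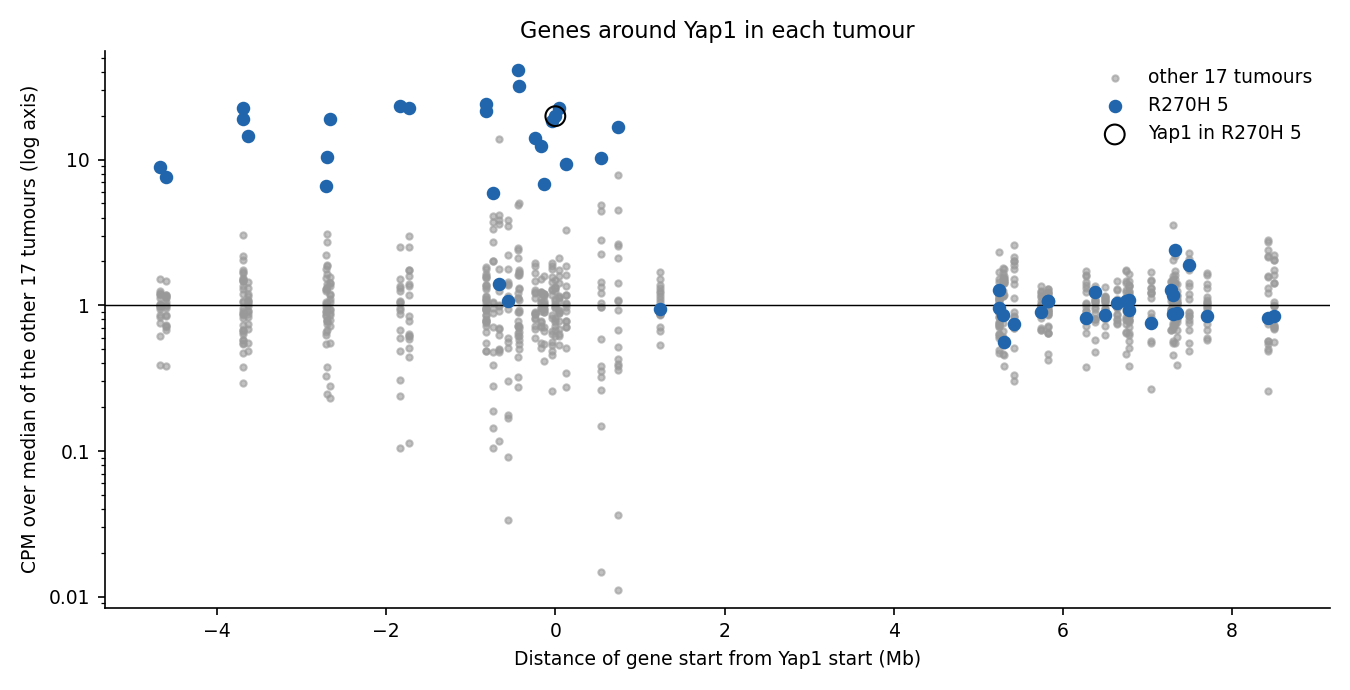
Ratio of CPM to the median of the other 17 tumours (log axis) for genes with a median of at least 1 CPM, against the distance of the gene's start from that of Yap1 in Mb, for R270H 5 (large points, Yap1 circled) and the other 17 tumours (grey). In R270H 5, 24 of 26 genes from -4.67 to 0.74 Mb lie at 4-fold or more, and the genes further along have a median ratio of 0.933.

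Genes elsewhere in the genome were also high in R270H 5, though no other tumour was counted in the same way. Of 15277 genes with a median of at least 1 CPM in the other 17 tumours, 169 (1.11%) were at 4-fold or more in R270H 5. Of these 169, 145 lay outside the Yap1 stretch. Of the 15277, 23 were at or above the ratio of Yap1, among them Yap1 itself and genes of the stretch such as Mmp8 and Pdgfd. The genes outside the stretch include genes of bone marrow cells, named after their values were seen. The granulocyte gene S100a9 had 411 CPM against at most 44.6 CPM in the others, Ltf 182 CPM against at most 64.1 CPM, and the red cell gene Slc4a1 188 CPM against at most 20.2 CPM. Their part in the Yap1 value was not tested.

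Genes that YAP and TEAD are known to activate lay within the range of the other tumours in R270H 5, with 1 exception. Of 23 such genes (Ankrd1, Amotl2, Lats2 and the 20 listed targets below), none was highest of the 18 tumours in R270H 5 and 1, Foxf2, was lowest. The tumour lay above the median of the other 17 for 13 genes and below it for 10, with a median log2 ratio of 0.10 on the scale of CPM plus 1. Ankrd1 had 5.20 CPM there and ranked 9 of 18, Amotl2 143 CPM and rank 5, and Lats2 145 CPM and rank 4. On that scale 1 gene was at least 2-fold above the median and 3 were at least 2-fold below it. The share of all genes at such ranks or ratios in R270H 5 was not counted, so these numbers have no background. Tgfb2, a growth factor gene, had 130 CPM against a median of 61.4 CPM and a range of 14.7 to 196 CPM in the others. The log2 ratio was -1.53 for Foxf2, a transcription factor, -1.16 for F3, which encodes tissue factor, and -1.02 for Fjx1, a secreted regulator of cell polarity. For Foxf2 the value of R270H 5 is 1 count, too few for a precise level or rank.

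Wwtr1 (ENSMUSG00000027803.14, chr3:57455649-57575910), which encodes TAZ, averaged 146 ± 29.4 CPM (SD) over the 18 tumours. Its values were 115, 159, 93.3 and 142 CPM in p53+/- tumours, 117, 182 and 111 CPM in R245W and 131, 142, 166, 165 and 121 CPM in R270H tumours. R172H tumours had 127 to 205 CPM, with a median of 169 CPM. All groups overlapped, and the log2 difference of R172H from p53+/- was 0.24 ± 0.22 (SE; edgeR adjusted p = 0.705). Per kb of exon, Yap1 stood at 0.169 to 0.495 of Wwtr1 in 17 tumours, with a median of 0.333. In R270H 5 this ratio was 7.78, so that Yap1 exceeded Wwtr1 in that tumour alone. Among the genes whose log2 CPM followed Wwtr1 most closely over the 18 tumours were Lima1 (r = 0.87) and Cdh13 (r = 0.87). For Yap1 they were Cfap300 (r = 0.93), Dcun1d5 (r = 0.88) and Aasdhppt (r = 0.88), all within the chromosome 9 stretch, and these correlations share the value of R270H 5. Over the 17 tumours without it they were Strn4 (r = 0.81), Prkd3 (r = 0.79) and Gpatch1 (r = 0.75). These r values describe libraries that also share depth and composition.

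Tead4 (ENSMUSG00000030353.15, chr6:128224288-128300823), which encodes a DNA-binding partner of YAP and TAZ, was highest in R245W tumours, at 11.01, 17.2 and 8.93 CPM. In p53+/- tumours it measured 3.27, 4.97, 2.19 and 5.27 CPM, in R270H tumours 4.06, 5.86, 3.999, 5.81 and 9.09 CPM, and in R172H tumours 3.13 to 5.87 CPM with a median of 4.54 CPM. All 3 R245W tumours lay above every p53+/- and R172H tumour, as 6.21% and 2.02% of all genes did in these contrasts. R270H 5, at 9.09 CPM, lay within the R245W range. This is the member that passed the test for any difference among genotypes (edgeR adjusted p = 0.0333). The log2 difference was 1.58 ± 0.35 between R245W and p53+/- (SE; edgeR adjusted p = 0.160) and 1.49 ± 0.31 between R245W and R172H (edgeR adjusted p = 0.0806). It was 1.13 ± 0.33 between R245W and R270H (edgeR adjusted p = 0.0893). With DESeq2 the adjusted p of these contrasts was 0.00358, 0.00214 and 0.0236, where 371, 352 and 1201 of all genes passed. The edgeR call for any difference was lost without R172H 1, 2, 3 or 4, R245W 1 or 2, or R270H 1 or 3, with an adjusted p of up to 0.123 without R245W 2. The contrast of R245W with R172H passed without p53+/- 3 (edgeR adjusted p = 0.0477) and by limma voom (adjusted p = 0.0411). For any difference, the edgeR adjusted p with the form of the title as a covariate was 0.167, and the limma voom adjusted p was 0.0912. That covariate was set by p53+/- tumours alone, the only group with both forms of title. R245W and R172H tumours have the same form of title. Of 10 fibroblast markers, all 10 had a log2 difference below 0 in R245W against p53+/- (median -1.72), and 9 did against R172H (median -1.80) and against R270H (median -1.41), with 0 past the edgeR threshold. Their summed level overlapped between all groups and was mostly Col1a1, a collagen gene that osteoblasts also express, with a median of 37987 CPM over the tumours. It ran from 14473 to 50184 CPM in R245W (median 43870), from 28847 to 79686 in p53+/- (median 62018), from 10477 to 73082 in R172H (median 37669) and from 20193 to 55665 in R270H tumours (median 36705). Their part in the Tead4 values was not tested.

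Tead3 (ENSMUSG00000002249.18, chr17:28331671-28350817) had 13.7, 55.4 and 37.3 CPM in R245W tumours. It measured 13.7, 14.8, 12.2 and 22.1 CPM in p53+/- and 12.4, 15.9, 10.8, 17.5 and 20.3 CPM in R270H tumours. The R172H tumours had 16.4 to 27.5 CPM with a median of 22.3 CPM. R245W 2 and 3 lay above all other tumours and R245W 1 among the lowest, so the groups overlapped. The log2 difference of R245W from R270H was 1.24 ± 0.33 (SE; edgeR adjusted p = 0.0704), with 1.63 and an edgeR adjusted p of 0.0181 without R245W 1. From p53+/- it was 1.11 ± 0.35 (edgeR adjusted p = 0.233) and from R172H 0.74 ± 0.32 (edgeR adjusted p = 0.422).

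Tead1 (ENSMUSG00000055320.17, chr7:112679318-112906807) measured 58.4, 38.5, 48.1 and 97.4 CPM in p53+/- tumours and 112.9, 138 and 64.9 CPM in R245W tumours. R172H tumours had 58.2 to 159 CPM with a median of 114 CPM, and R270H tumours 67.9 to 99.6 CPM with a median of 92.3 CPM. The group means were higher in the 3 missense genotypes, and p53+/- 4 lay within their range, as did p53+/- 1 at its lower end. The log2 difference from p53+/- was 0.68 ± 0.27 for R172H (SE; edgeR adjusted p = 0.331) and 0.75 ± 0.31 for R245W (edgeR adjusted p = 0.333). Tead2 (ENSMUSG00000030796.17, chr7:45215753-45233644) ranged from 17.6 CPM in p53+/- 1 to 154.8 CPM in R172H 2. Its group medians were 40.6 CPM in p53+/-, 46.4 CPM in R172H, 69.4 CPM in R245W and 58.5 CPM in R270H tumours. All groups overlapped, and the log2 difference of R245W from p53+/- was 0.75 ± 0.47 (SE; edgeR adjusted p = 0.536).

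**Figure D3:**
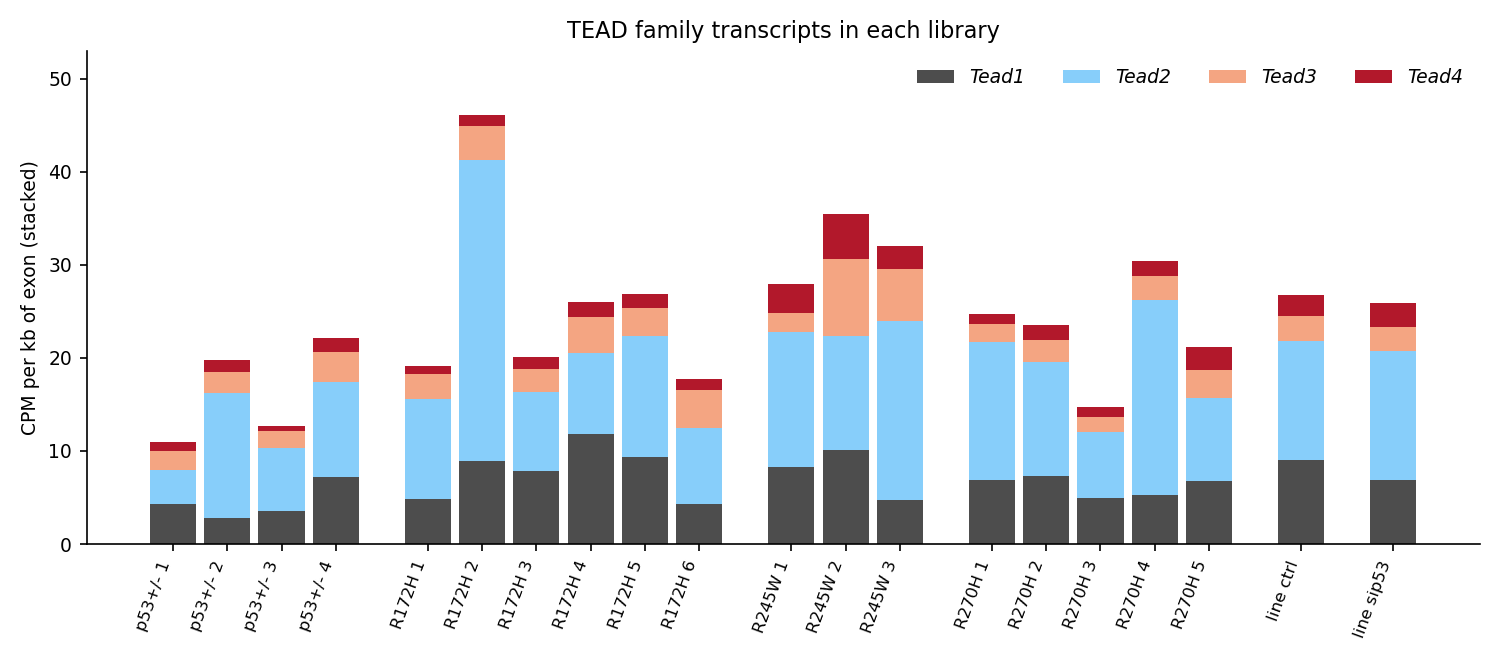
Stacked CPM per kb of exon of the 4 TEAD genes in each tumour and in the 2 cell line libraries. Tead2 forms the largest block on average in every group, R172H 2 has the tallest bar, and the Tead4 block is thickest in the R245W tumours.

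Per kb of exon, which allows genes to be compared, Tead2 held the largest mean share of TEAD transcripts in every genotype, from 48.9% ± 12.9 (SD, n = 3) in R245W to 54.0% ± 10.6 (n = 5) in R270H tumours. Tead1 held 24.4% to 31.4%, Tead3 10.3% to 16% and Tead4 5.38% to 10.7% on average. The share of Tead4 was 10.7% ± 2.87 in R245W (SD, n = 3), 6.68% ± 1.46 in p53+/- (n = 4), 5.38% ± 1.60 in R172H (n = 6) and 7.25% ± 2.87 in R270H tumours (n = 5). The sum of the 4 genes was 16.4 ± 5.41 CPM per kb in p53+/- and 31.8 ± 3.78 CPM per kb in R245W tumours. These sums did not overlap, with 10.9 to 22.1 against 27.9 to 35.5 CPM per kb. Of all single genes, 6.21% were higher without overlap in that contrast, and no such share was counted for sums. R172H tumours, at 17.7 to 46.1 CPM per kb, and R270H tumours, at 14.7 to 30.5 CPM per kb, overlapped with both.

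The kinase gene Lats2 (ENSMUSG00000021959.15, chr14:57689662-57758388), itself a target of YAP, was higher in every R245W tumour than in every p53+/- tumour. It measured 131, 184 and 125 CPM in R245W and 51.0, 93.9, 69.5 and 98.6 CPM in p53+/- tumours. R172H tumours had 80.1 to 154.6 CPM and R270H tumours 90.4 to 149 CPM, overlapping with both. The log2 difference was 0.83 ± 0.27 for R245W (SE; edgeR adjusted p = 0.239) and 0.46 ± 0.24 for R270H (edgeR adjusted p = 0.481), both against p53+/-. With Tead4, Lats2 makes 2 of 10 members without overlap in R245W against p53+/-, where 6.21% of all genes were higher without overlap. Gm49361, an annotated gene on the same strand, shares 2955 exon bases with Lats2, and how reads over these bases were counted is not stated. Lats1 (ENSMUSG00000040021.12, chr10:7681214-7716460), the other LATS kinase gene, overlapped between all genotypes. Its mean was lowest in p53+/- tumours, at 91.4 ± 20.4 CPM (SD, n = 4), and highest in R172H tumours, at 118 ± 24.4 CPM (n = 6). R245W tumours averaged 97.1 ± 6.79 CPM (n = 3) and R270H tumours 102 ± 12.3 CPM (n = 5). The log2 difference of R172H from p53+/- was 0.21 ± 0.17 (SE; edgeR adjusted p = 0.650).

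Ankrd1 (ENSMUSG00000024803.8, chr19:36111961-36120099), which encodes an ankyrin repeat protein of muscle and stretched cells, varied widely within genotypes. It measured 0.315, 2.21, 0.922 and 33.7 CPM in p53+/-, 6.60, 3.82 and 3.46 CPM in R245W and 9.88, 21, 5.38, 3.70 and 5.20 CPM in R270H tumours. R172H tumours had 0.104, 0.348, 6.63, 3.87, 9.58 and 20.7 CPM. The high values stood in 3 genotypes, and 1 tumour set the p53+/- mean. The log2 difference from p53+/- was -0.37 ± 1.11 for R172H (SE; edgeR adjusted p = 0.923) and -0.97 ± 1.36 for R245W (edgeR adjusted p = 0.796). Without p53+/- 4 these became 2.42 and 1.83, so that even the direction rests on that tumour.

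Skeletal muscle genes were high in the same libraries. The genes closest to Ankrd1 over the 18 tumours were Acta1 (r = 0.94), the actin of skeletal muscle, Klhl31 (r = 0.94), a gene of muscle cells, and Mylpf (r = 0.93), a light chain of fast muscle myosin. The summed level of 15 muscle markers was 8059 CPM in p53+/- 4, 4946 CPM in R270H 2 and 3193 CPM in R172H 6, the 3 tumours highest in Ankrd1. In the tumours overall it ran from 119 CPM, in R245W 2, to 8059 CPM, and 8 of the 15 markers were at 1 CPM or more in every tumour. With a muscle score as a covariate, the log2 difference of Ankrd1 from p53+/- was 0.37 for R172H and 1.22 for R245W. In the cell line the 15 markers summed to 17.2 CPM, with Myh4, Myh1, Myh2 and Myl1 at 0, while Ankrd1 lay at 117 CPM. In R172H 1 the 0.104 CPM of Ankrd1 are 3 counts, too few for a precise level.

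**Figure D4:**
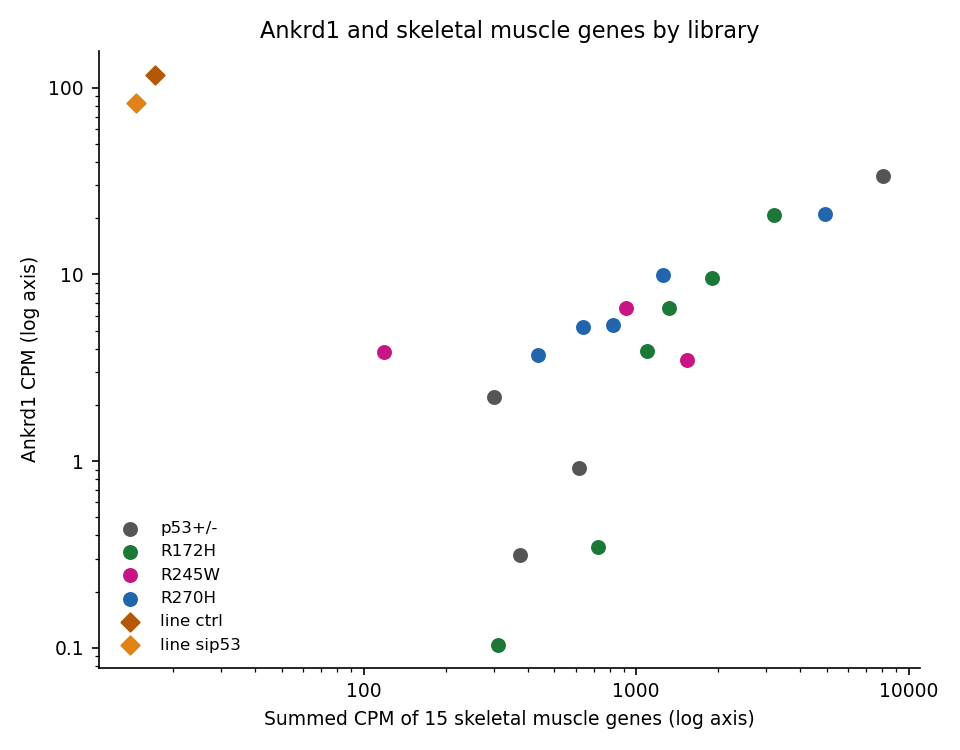
Ankrd1 CPM against the summed CPM of 15 skeletal muscle genes, both on log axes, with 1 point per library. The 3 tumours highest in Ankrd1 (20.7 to 33.7 CPM) are highest in muscle genes, and the 2 cell line libraries (diamonds) have 82.5 and 117 CPM of Ankrd1 with 14.6 and 17.2 CPM of muscle genes.

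Amotl2 (ENSMUSG00000032531.15, chr9:102716672-102733418), which encodes a scaffold protein at cell junctions that binds YAP, measured 87.1, 61.6, 41.5 and 163 CPM in p53+/- tumours. It measured 158, 200 and 75.1 CPM in R245W and 252, 53.5, 37.7, 71.2 and 143 CPM in R270H tumours, and R172H tumours had 56.8 to 121 CPM with a median of 75.8 CPM. All groups overlapped. The log2 difference of R245W was 0.92 ± 0.48 from R172H (SE; edgeR adjusted p = 0.509) and 0.67 ± 0.53 from p53+/- (edgeR adjusted p = 0.622).

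The order of the members by median CPM per kb over the 18 tumours was Wwtr1 (29.7), Lats2 (14.7), Lats1 (13.9), Amotl2 (12.1), Tead2 (11.5), Yap1 (9.99), Tead1 (6.83), Tead3 (2.65), Ankrd1 (1.57) and Tead4 (1.42). The ranges of all neighbours in this order overlapped. Wwtr1 ran from 19.5 to 42.9 and Lats2 from 7.31 to 26.4 CPM per kb. Within every single tumour, however, Wwtr1 stood above Lats2, and the other neighbours were not compared within tumours.

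No relation between the RNA levels of the co-activators, or of a co-activator with a target gene, passed a permutation test. Of 7 pairs tested over the 18 tumours, Pearson's r ran from -0.11 for Yap1 with Wwtr1 to 0.28 for Yap1 with Lats2, with Spearman's rho of 0.09 and 0.20. Their permutation p was 0.733 and 0.230 for r, and 0.736 and 0.435 for rho. The r of Yap1 was 0.12 with Ankrd1 (permutation p = 0.550) and 0.27 with Amotl2 (permutation p = 0.309). For Wwtr1 it was 0.05 with Ankrd1, -0.07 with Amotl2 and 0.18 with Lats2 (permutation p = 0.833, 0.774 and 0.478). The rho of Yap1 was 0.22 with Ankrd1 and 0.16 with Amotl2 (permutation p = 0.391 and 0.518), and that of Wwtr1 was 0.02, -0.10 and 0.07 (permutation p = 0.947, 0.700 and 0.792). After adjustment over the 7 pairs, the permutation p of r was 0.833 for each pair and that of rho 0.924 or 0.947. Without the 2 tumours farthest from the median, R270H 5 and p53+/- 2 for Yap1, r was 0.15 with Wwtr1, 0.31 with Ankrd1, 0.24 with Amotl2 and 0.15 with Lats2. Without R172H 6 and R245W 2, the farthest for Wwtr1, r was -0.16 with Ankrd1, -0.22 with Amotl2 and -0.03 with Lats2. Among the 11 tumours with a serial number in the title, r of Yap1 with Wwtr1, Ankrd1, Amotl2 and Lats2 was 0.25, -0.12, -0.19 and 0.15, and among the other 7 it was -0.15, 0.06, 0.41 and 0.63.

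Of 29 tested genes of the pathway upstream of YAP or bound to it, from a list of 31, 1 was higher and 1 lower in R270H than in R172H tumours, and none passed in the other 5 contrasts by edgeR. Of all genes, 3.41% were higher and 1.87% lower in that contrast. Mob1a, which encodes an activator of the LATS kinases, measured 302, 220, 248, 192 and 239 CPM in R270H and 135 to 179 CPM in R172H tumours. These groups did not overlap, and the log2 difference was 0.66 ± 0.15 (SE; edgeR adjusted p = 0.0188). Mink1, a kinase of the MAP4K family that acts on LATS, measured 39.4, 43.0, 37.2, 41.2 and 49.8 CPM in R270H and 60.4 to 95.4 CPM in R172H tumours, again without overlap. Among all genes 3.86% were higher and 2.87% lower without overlap. Its log2 difference was -0.85 ± 0.20 (edgeR adjusted p = 0.0246). With the form of the title as a covariate the log2 differences were 0.29 ± 0.27 for Mob1a (edgeR adjusted p = 0.772) and -0.42 ± 0.37 for Mink1 (edgeR adjusted p = 0.764), and 1 gene of all those tested passed in that contrast. Only the p53+/- group holds both forms of title, so that covariate was set by p53+/- tumours alone. The edgeR adjusted p reached 0.0518 for Mob1a without R270H 1, and for Mink1 it was between 0.0511 and 0.0595 without R172H 3, R172H 4, R270H 1, R270H 3 or R270H 4. Dchs1, a large cadherin that acts with Fat4 in the pathway, had the third lowest p of the list for any difference. It measured 40.0, 32.8 and 43.7 CPM in R245W and 50.2 to 160 CPM in R172H tumours, with a log2 difference of -1.48 ± 0.42 (SE; edgeR adjusted p = 0.198).

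None of the 20 listed YAP and TEAD targets outside the members passed in a contrast by edgeR. At an unadjusted edgeR p under 0.05 there were 2 in each contrast with p53+/-, 4 in R245W against R172H, 1 in R270H against R172H and 1 in R245W against R270H. Of all genes 10.8%, 23.2% and 18.4% met it in the last 3 contrasts. Most of the 20 had a log2 difference above 0 in each of the contrasts of R172H, R245W and R270H with p53+/-, which share the p53+/- tumours. In R172H against p53+/- tumours 17 of the 20 were above 0, with a median of 0.46 where that of all genes was -0.02. In the same contrast 7 of 8 immediate early genes and 8 of 8 pericyte and smooth muscle markers were above 0, with 0 past the edgeR threshold. The former summed to 231 to 733 CPM in R172H and 134 to 217 CPM in p53+/- tumours, and the latter to 779 to 1192 and 511 to 673 CPM, both without overlap. The pericyte and smooth muscle sum also lay above every p53+/- tumour in R270H, at 784 to 992 CPM. In R245W it overlapped with p53+/-, at 576 to 1111 CPM. No share without overlap was counted for such sums, and the part of both marker sets in the target values was not tested. In R270H against R172H 15 of 20 were below 0, with a median of -0.26 beside -0.02 for all genes. The 3 with the lowest p for any difference were Nt5e, Ccdc80 and Nuak2. Nt5e, an enzyme that makes adenosine at the cell surface, had 14.3 to 227 CPM in R270H and 15.8 to 45.6 CPM in R172H tumours, with a log2 difference of 1.61 ± 0.58 (SE; edgeR adjusted p = 0.107). Ccdc80, a matrix protein, had 254 to 475 CPM in R172H and 134 to 227 CPM in p53+/- tumours without overlap, with a log2 difference of 0.82 ± 0.33 (edgeR adjusted p = 0.336). Nuak2, a kinase, had 7.60 to 15.8 CPM in R172H and 5.24 to 7.20 CPM in p53+/- tumours, also without overlap, with a log2 difference of 0.72 ± 0.30 (edgeR adjusted p = 0.353). Of all genes, 1.79% were higher without overlap in that contrast. Over the 10 members the median log2 difference from p53+/- was 0.23 in R172H, 0.71 in R245W and 0.33 in R270H tumours, beside -0.02, -0.04 and -0.01 for all genes. These 3 contrasts share the p53+/- tumours.

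In cell line 14, with 1 library each and therefore no test, Trp53 had 94.9 CPM in the control and 30.6 CPM after siRNA, a ratio of 0.322 (95% counting interval 0.307 to 0.338). No member changed by 1.5-fold or more on the scale of CPM plus 1, which 0.376% of 13556 genes did upward and 0.775% downward. Ankrd1 was lowest in ratio, with 117 and 82.5 CPM and a ratio of 0.707 (0.683 to 0.732). Lats2 had 137 and 102 CPM with a ratio of 0.746 (0.723 to 0.770), Tead1 123 and 93.6 CPM with a ratio of 0.759 (0.735 to 0.784), and Lats1 132 and 110 CPM with a ratio of 0.832 (0.807 to 0.858). Amotl2 had 803 and 702 CPM with a ratio of 0.874 (0.863 to 0.885). These intervals cover counting error only and not the spread between cultures.

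The co-activators differed little between the 2 libraries. Yap1 had 136 and 132 CPM with a ratio of 0.974 (0.946 to 1.0), and Wwtr1 145 and 142 CPM with a ratio of 0.978 (0.951 to 1.01). Tead2 had a ratio of 1.09 (1.04 to 1.13), Tead3 of 0.982 (0.907 to 1.06) and Tead4 of 1.10 (0.981 to 1.24). Of the 20 listed targets 1, Gadd45a, which is also a target of p53, was past the fold, with 58.3 and 30.2 CPM and a ratio of 0.517 (0.491 to 0.545). Of the 30 listed upstream genes none was. Against the tumours, the control library was above all 18 for Ankrd1, at 3.46-fold the highest tumour, and for Amotl2, at 3.19-fold, and within their range for the other 8 members. The same held for 24.5% of all genes, and 26.2% were below all tumours. The line was also low in endothelial markers, at 6.18 CPM against 240 to 924 CPM in tumours, and in macrophage markers, at 37.4 CPM against 1094 to 2707 CPM. Their part in these differences was not tested.

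**Figure D5:**
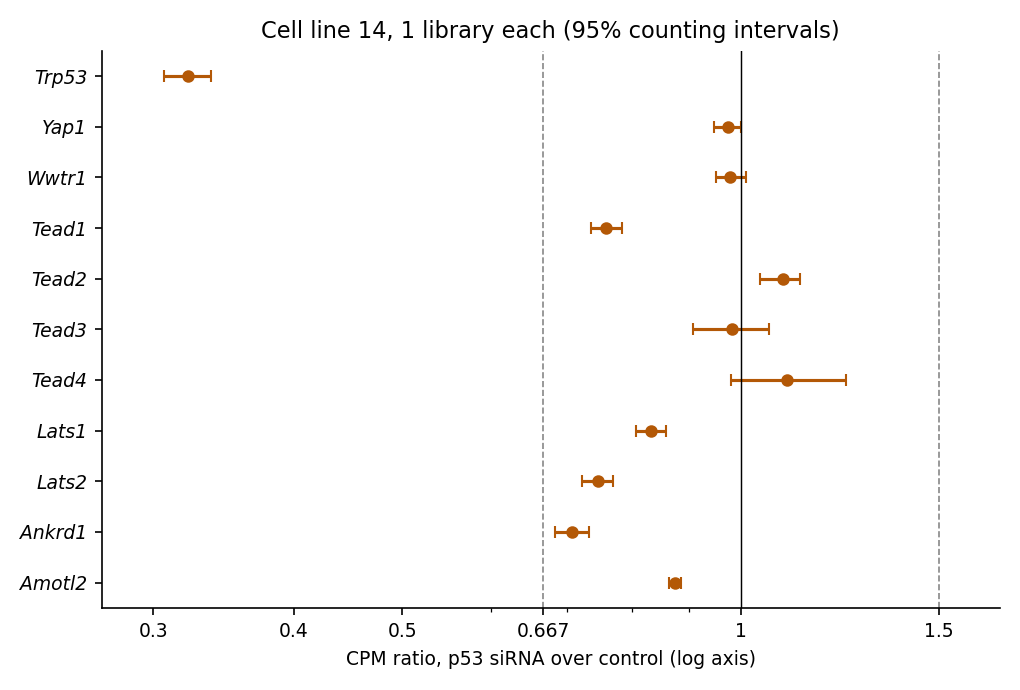
Ratio of CPM after siRNA against p53 to CPM in the control of cell line 14 for Trp53 and the 10 members, on a log axis, with 95% counting intervals and dashed lines at 1.5-fold. Trp53 is at 0.322, and the members lie between 0.707 for Ankrd1 and 1.10 for Tead4.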

How the data were processed

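RNA-seq measured 18 tumours and 2 libraries of cell line 14, grouped by the labels, with replicate numbers in accession order. The authors deposited raw counts per gene. Per the submitters' processing notes, reads were aligned to GRCm38 with STAR 2.6.0b and groups compared with DESeq2. The counting program, annotation and strand setting are not given in the sources used here. Of 49585 IDs, 49326 matched a symbol.

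Tumour counts were fitted in R 4.3.3 with edgeR 4.0.16 (TMM, filterByExpr with minimum count 10 and minimum total count 15, 20616 genes, 1 mean per genotype, 14 residual degrees of freedom, quasi-likelihood test). The Benjamini-Hochberg method adjusted p separately for each contrast (threshold 0.05). A standard error is the log2 difference over the square root of F. The labels do not say that tumours of a group came from separate mice, so that p measures the spread between these samples. The fit was also run on counts simulated from its own spread estimates, with genes drawn independently. These counts held no difference by form of title or tissue composition, so that run cannot show how the fit handles them. Its outcome is not reported here. CPM use total counts, per kb values the union of exons in a GRCm38 annotation, and relations 100000 permutations of log2 CPM (prior count 2), two-sided. A count of 3 is the limit a count of 0 allows, and intervals are exact at 95% and cover counting error only. The line had 64078428 and 73352548 counts, and its ratios needed at least 1 CPM in 1 library.

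All 10 members were named, and from the 2 pathway lists, drawn from textbook knowledge, the 3 genes with the lowest p for any difference. Genes most like Yap1, Wwtr1 and Ankrd1 are the 3 highest r among genes with a mean of at least 1 CPM, passing over pseudogenes and model numbers. For Wwtr1, 1 of the 3 is not reported here. Members and lists were chosen with earlier results of these data known. The stretch around Yap1 and the tumour left out there were chosen after seeing values. Alternatives were DESeq2 1.42.0, its size factors, no filter, limma 3.58.1 voom with quality weights, only the groups compared, the form of the title, a muscle score and leaving out each tumour, and for the line other pseudocounts, TMM and 10 CPM. As a covariate, the form of the title was estimated from p53+/- tumours alone, because every other genotype has a single form.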

Additional observations from a re-analysis of the deposited data

Results flagged for a closer look

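In 30 sets of values (10 members in 3 genotypes with 4 or more tumours), 3 had 1 tumour far from the rest of its group. The check used Dixon's gap over range on CPM without a log scale. Its limit flags about 1 in 20 sets by chance if values are normally distributed, which CPM need not be. Yap1 in R270H 5 was at 1820 CPM beside 73.8 to 123 CPM in the other R270H tumours. Tead2 in R172H 2 was at 154.8 CPM beside 39.0 to 62.4 CPM in the other R172H tumours. Ankrd1 in p53+/- 4 was at 33.69 CPM beside 0.315 to 2.21 CPM in the other p53+/- tumours.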

How the results depend on the processing

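No paired analysis was possible because the labels give the tumours no shared numbers. Of the 60 log2 differences of the members, 36 kept their sign under each alternative run for them and 24 changed it under at least 1. The 18 alternatives that leave out 1 tumour and 5 others were run for all 60, DESeq2 for 54, the form of the title as a covariate for 50 and p53+/- tumours with the same form of title for 30. In 22 of these the difference was smaller than its standard error. The number of members past the threshold, 0 in each contrast, became 1 with DESeq2 for R245W against p53+/- and against R172H, 2 with DESeq2 for R245W against R270H, and 1 with limma voom for R245W against R172H. DESeq2 gave no p for Yap1. For any difference 1 member passed, 2 with DESeq2, and 0 with limma voom or with the form of the title as a covariate, where the adjusted p of Tead4 was 0.0912 and 0.167. Leaving out 1 tumour, the members past the threshold ranged from 0 to 1 for R245W against R172H, R270H against R172H, R245W against R270H and any difference, and the adjusted p of Tead4 for any difference from 0.0212 to 0.123. The tumours whose removal changed these numbers were p53+/- 3 (Tead4, R245W against R172H), R270H 2 and 3 (Yap1, R270H against R172H) and R245W 1 (Tead3, R245W against R270H). For any difference, Tead4 was lost without R172H 1, 2, 3 or 4, R245W 1 or 2, or R270H 1 or 3.

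Ankrd1 in R172H against p53+/- turned to 2.24 with p53+/- tumours of the same form of title, 2.26 with that form as a covariate and 0.37 with the muscle score, and ranged from -1.24 to 2.42 when 1 tumour was left out. In R245W against p53+/- it turned to 1.17 with limma voom, 1.64 and 1.66 by form of title and 1.22 with the muscle score, and ranged from -1.35 to 1.83. Lats1 in R172H against p53+/- turned to -0.0042 with p53+/- tumours of the same form of title. Pearson's r of Yap1 with Wwtr1 turned to 0.15 without the 2 farthest tumours and 0.25 among titles with a serial number. Among the latter it was -0.12 with Ankrd1 and -0.19 with Amotl2. The r of Wwtr1 turned to -0.16 with Ankrd1 and -0.03 with Lats2 without the 2 farthest tumours, and to 0.01 with Amotl2 in deviations from genotype means. No member of the line passed the fold under any of its alternatives. The cause was not tested.

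All genes past the edgeR threshold numbered 16, 15 and 0 for R172H, R245W and R270H against p53+/-, 32 for R245W against R172H, 1088 for R270H against R172H, 255 for R245W against R270H and 590 for any difference. In that order they numbered 307, 371, 329, 352, 2243, 1201 and 2513 with DESeq2. Other settings are given where the number moved by over 1.5 times. R172H against p53+/- gave 33 without a filter, 0 with limma voom, with only the groups compared or with the muscle score, and 4 and 3 by form of title (same form, covariate). R245W against p53+/- gave 4 with only the groups compared and 9 and 8 by form of title. R270H against p53+/- gave 2 without a filter, 1 with limma voom and 4 and 4 by form of title. R245W against R172H gave 119 with limma voom. R270H against R172H gave 633 without a filter, 2294 with limma voom, 1638 with only the groups compared and 1 with the form of title as a covariate. R245W against R270H gave 109, 1047 and 8 without a filter, with limma voom and with that covariate. Any difference gave 330, 19 and 350 with limma voom, that covariate and the muscle score. Leaving out 1 tumour gave 0 to 166, 5 to 30, 0 to 21, 14 to 39, 469 to 1323, 48 to 411 and 185 to 937. Genes past the fold in the line numbered 156, and 80 at 10 CPM or more. Groups of 3 to 6 tumours and 1 library per arm of the line limit the precision.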

Other observations

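For the other 9 members, the genes within 2 Mb were compared in the tumour where the member was highest. Their median ratio to the other 17 tumours ran from 0.857 around Tead4 in R245W 2 to 1.43 around Ankrd1 in p53+/- 4, and around Yap1 in R270H 5 it was 15.4 over 18 genes. Neighbours at 2-fold or more numbered 15 of 18 for Yap1, 12 of 60 for Tead3, 6 of 29 for Ankrd1, 5 of 25 for Tead1 and 6 of 93 for Tead2, and 1 to 3 for each of the others. The share of all genes at 2-fold or more in each of these tumours was not counted, so these numbers have no background. Tead2 in R172H 2 was at 3.02-fold the median of the others, with a median of 1.24 over its 93 neighbours. Amotl2 in R270H 1 was at 3.32-fold, with 1.03 over 28 neighbours.

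The control library of the cell line was above all 18 tumours for 7 of 30 upstream genes and 5 of 20 targets, and below all for 4 and 2, where 24.5% of all genes were above and 26.2% below. Dchs1, at 0.843 CPM, was below all tumours, at a ratio of 0.0165 to their median. Foxf2, at 21.6 CPM, was 11.1-fold the tumour median, and Axl, a receptor tyrosine kinase and YAP target, was at 505 CPM against at most 311 CPM in a tumour. The 3 genes were named after their values were seen, and with 1 library these values have no replicate check.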
